A study of Mus musculus with 12 samples.

Results

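The 51 genes described here serve DNA replication and the entry into S phase: origin licensing factors, the MCM helicase, the replicative polymerases and their clamp and loader, the suppliers of deoxynucleotides, the E2F and cyclin E regulators and the chromatin and repair factors that travel with the fork. They were taken from a fixed list of gene symbols, and each was read from the probe whose accession names it, the brightest one where a gene had several. All 51 were on the array, among 37150 genes or transcripts in all. Of these, 50 passed the background filter, which kept probes detected above background in all 3 mice of some genotype, and with them 23109 genes or transcripts. Brca1 did not pass, and 46 members were well above background on all 12 arrays.

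The cells were alveolar macrophages, the resident phagocytes of the lung airspaces, recovered by lavage and sorted on a flow cytometer. They came from female C57BL/6 mice of 8 to 9 weeks, in 4 genotypes of 3 mice each: Bach1/Bach2 DKO (both genes absent), Bach2 KO, Bach1 KO and WT. Bach1 and Bach2 are related transcriptional repressors that bind DNA with small Maf proteins. How the alleles were made and which cells lost the genes are not given in the sources used here, and no mouse received a treatment.

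Replication starts when the origin recognition complex, Cdc6 and Cdt1 load the MCM helicase onto DNA in G1. Cyclin E with Cdk2, and then Cdc45 and GINS, turn that helicase on. Primase and the polymerases copy the strands behind it, held by the PCNA clamp, while replication protein A covers the single-stranded DNA. Most of these genes are transcribed at the G1/S boundary by E2F factors and are low in cells that do not cycle. Alveolar macrophages are long-lived and renew themselves in the lung by local division.

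E2F factors bind near the start sites of many of these genes, so the promoters were searched for the letters TTTGGCGC, TTTCCCGC, TTTCGCGC and TTTGCCGC, called E2F-type here. CCAAT, the letters of the NF-Y box, TGAGTCA, those of the AP-1 element, and the longer Maf recognition element that contains TGAGTCA were searched as well. Both strands of the 250 bases before each start were read from the RefSeq promoter table of assembly GRCm38.p6. It held 43 of the 51 members, and had no entry under Mcm4, Gins1, Gins2, Prim2, Pole, Rfc2, Exo1 or Ccne2. Some members have several promoters there, 52 in all. E2F-type letters were present in 12 of these 52 promoters (23.08%), against 1.86% of all 32851 promoters in the table, and for 12 of the 43 members. These were Brca2, Cdc6, Cdk2, Dnmt1, Gins3, Mcm5, Mcm6, Mcm7, Orc1, Pola1, Rfc3 and Uhrf1. CCAAT was present in 31 of the 52 promoters (59.62%), against 33.85% of all promoters, and for 27 of the 43 members. The Maf recognition element occurred in 0.134% and TGAGTCA in 4.463% of all promoters, and 0 of the 43 members held either of them in this window. Of the 31 matched members that were lower in Bach2 KO cells than in WT cells, 8 held E2F-type letters and 20 held CCAAT. A match is a description of the letters and was not tested as a binding site.

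The promoters of 7 members are shown, each 5′ to 3′ on the strand of its gene, with E2F-type and CCAAT matches in capitals. Mcm6, Tk1, Prim1 and Rpa1 had the smallest adjusted p-values of the matched members in Bach2 KO against WT cells. Mcm5, Mcm7 and Cdc6 were added, after their values were seen, because they hold E2F-type letters. The coordinates are those of GRCm38.p6.
Mcm6, chr1:128359706-128359955 (minus strand): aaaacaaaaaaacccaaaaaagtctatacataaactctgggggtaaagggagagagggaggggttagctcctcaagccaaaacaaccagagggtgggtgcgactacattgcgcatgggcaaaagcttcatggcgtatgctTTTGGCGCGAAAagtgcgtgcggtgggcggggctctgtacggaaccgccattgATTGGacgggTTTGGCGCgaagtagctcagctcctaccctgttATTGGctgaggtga
Mcm5, chr8:75109259-75109508 (plus strand): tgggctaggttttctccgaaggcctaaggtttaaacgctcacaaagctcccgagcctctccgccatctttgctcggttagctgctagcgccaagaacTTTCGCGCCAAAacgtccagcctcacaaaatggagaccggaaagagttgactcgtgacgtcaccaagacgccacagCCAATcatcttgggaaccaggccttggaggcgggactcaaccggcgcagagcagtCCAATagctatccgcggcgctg
Mcm7, chr5:138171884-138172133 (minus strand): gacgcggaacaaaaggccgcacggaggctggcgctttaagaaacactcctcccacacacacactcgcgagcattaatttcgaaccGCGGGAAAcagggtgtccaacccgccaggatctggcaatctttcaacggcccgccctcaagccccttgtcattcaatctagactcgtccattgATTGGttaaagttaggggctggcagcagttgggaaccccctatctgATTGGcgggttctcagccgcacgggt
Cdc6, chr11:98907901-98908150 (plus strand): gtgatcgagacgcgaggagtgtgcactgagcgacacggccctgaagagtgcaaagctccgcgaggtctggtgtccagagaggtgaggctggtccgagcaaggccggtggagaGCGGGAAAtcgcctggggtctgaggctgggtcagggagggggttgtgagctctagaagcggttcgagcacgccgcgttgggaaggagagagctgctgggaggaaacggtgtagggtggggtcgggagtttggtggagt
Tk1, chr11:117826015-117826264 (minus strand): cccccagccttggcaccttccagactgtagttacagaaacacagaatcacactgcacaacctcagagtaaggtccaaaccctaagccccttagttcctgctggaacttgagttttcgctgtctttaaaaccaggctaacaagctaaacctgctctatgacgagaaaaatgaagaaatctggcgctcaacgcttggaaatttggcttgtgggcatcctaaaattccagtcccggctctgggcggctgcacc
Prim1, chr10:128014965-128015214 (plus strand): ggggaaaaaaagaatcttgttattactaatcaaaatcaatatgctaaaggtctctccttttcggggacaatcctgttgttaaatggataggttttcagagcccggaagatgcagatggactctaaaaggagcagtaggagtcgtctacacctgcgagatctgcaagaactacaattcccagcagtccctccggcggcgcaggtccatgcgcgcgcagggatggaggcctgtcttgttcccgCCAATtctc
Rpa1, chr11:75348384-75348633 (minus strand): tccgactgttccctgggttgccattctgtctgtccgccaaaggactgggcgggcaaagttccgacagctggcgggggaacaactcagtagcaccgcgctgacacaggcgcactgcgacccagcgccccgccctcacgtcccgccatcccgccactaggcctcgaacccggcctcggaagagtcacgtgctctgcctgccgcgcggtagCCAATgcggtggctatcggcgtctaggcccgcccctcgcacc

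Mcm6 held 3 E2F-type matches, which began 110, 106 and 47 bases before the start. The matches at 110 and 106 overlap. Mcm5 held an overlapping pair at 153 and 149 bases, and Mcm7 and Cdc6 held a match each at 165 and 138 bases. Tk1, the member with the deepest loss, held neither E2F-type letters nor CCAAT in this window, and Prim1 and Rpa1 held 1 CCAAT each.

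Each value below is the log2 signal of a probe minus the 75th percentile of its array, so that 0 is the level of that percentile and 1 unit is a 2-fold difference. The share of the 59305 non-control spots detected well above background ran from 45.2% to 72.4% per array, no spot was saturated, and arrays of a genotype correlated at 0.94 to 0.988. All WT, all Bach1 KO and 2 Bach2 KO arrays lay on 1 slide, the other Bach2 KO array on another and all DKO arrays on the third, so that the DKO genotype and its slide cannot be told apart. The Bach1 probe averaged 2.48 in DKO, 3.94 in Bach2 KO, 2.50 in Bach1 KO and 3.93 in WT cells, a difference from WT that passed in DKO (adjusted p of 0.0107, limma) and not in Bach1 KO cells (0.304), although no arrays overlapped. Neither Bach2 probe differed past the threshold between genotypes with and without Bach2. Which parts of these genes were deleted is not known here, so the probes do not settle the labels. All 11 alveolar macrophage markers on the array were well above background on every array. Their summed level was 8.27 to 8.97 in DKO, 8.31 to 8.73 in Bach2 KO, 9.66 to 10.3 in Bach1 KO and 10.1 to 10.3 in WT cells. The sum hides larger falls of single markers. Marco averaged -0.19 in DKO, 2.62 in Bach2 KO and 7.91 in WT cells, and Krt79 -0.72 in DKO, 2.23 in Bach2 KO and 7.71 in WT cells. Chil3 moved less, at 7.58 in DKO, 7.43 in Bach2 KO and 8.18 in WT cells, as did Itgax, at 6.49 in DKO, 5.70 in Bach2 KO and 6.41 in WT cells.

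Loss of Bach2, alone or with Bach1, went with low signals across the replication genes, while loss of Bach1 alone did not. The median over the 51 members was 1.12 to 1.49 on the DKO arrays, 1.48 to 1.66 on the Bach2 KO arrays, 2.78 to 2.98 on the Bach1 KO arrays and 2.82 to 3.12 on the WT arrays. The DKO and Bach2 KO arrays thus all lay below the Bach1 KO and WT arrays. The median over all genes and transcripts tested stayed between -0.46 and -0.30 on all 12 arrays. For 34 of the 51 members, all 6 arrays without Bach2 read lower than all 6 arrays with it, which held for 14.4% of all genes and transcripts tested. In RNA of sorted cells, a smaller share of cells that replicate their DNA and less RNA per cell cannot be told apart.

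**Figure D1:**
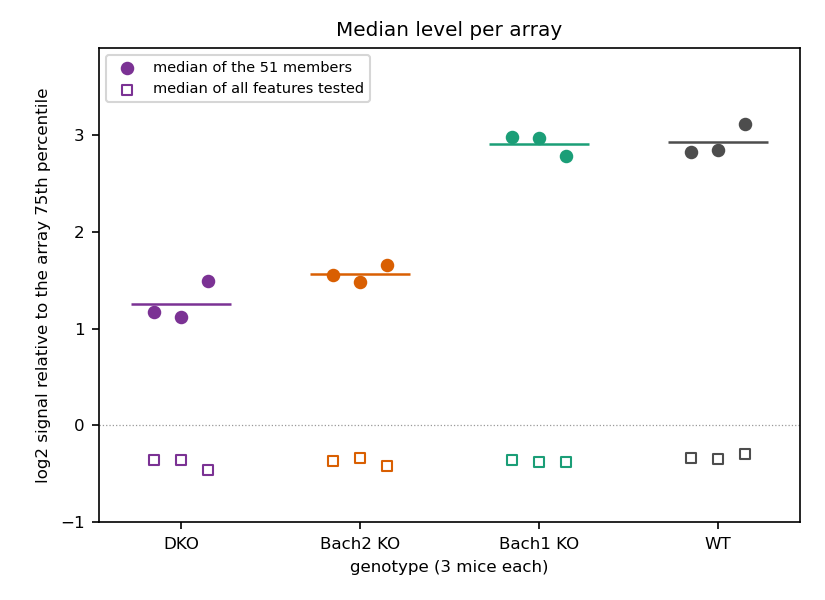
Median level per array, as log2 signal relative to the array's 75th percentile, for the 51 members (filled circles, line at the genotype mean) and for all genes and transcripts tested (open squares). The members' medians on the DKO and Bach2 KO arrays lie between 1.12 and 1.66, below the 2.78 to 3.12 of the Bach1 KO and WT arrays, while the squares stay between -0.46 and -0.30.

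Of the 50 members tested in Bach2 KO against WT cells, 38 fell and 1 rose past an adjusted p of 0.05, where 24.7% of all genes and transcripts tested fell, 12.4% rose and 37.2% changed either way. These p-values are from limma with Benjamini-Hochberg adjustment over all features. The median difference of the 51 members was -1.48, against -0.30 for all features. In DKO against WT cells 37 of 50 fell and 0 rose, against 16.6% and 10.6% of all features. At an unadjusted p under 0.05, 40 members were lower, against 25.4% of all features, and 0 were higher. Every DKO array lay below every WT array for 42 members (29.1% of all features), and every Bach2 KO array below every WT array for 39 (33.4%). The median was -1.70 over the members and -0.28 over all features. At least 2-fold losses past the threshold were seen for 36 members in Bach2 KO cells, against 20.3% of all features, and for 34 in DKO cells, against 14.1%. At least 4-fold losses were seen for 15 members in Bach2 KO cells, against 6.99% of all features, and for 19 in DKO cells, against 5.8%. The fall was shared by 35 members, though both comparisons use the same WT arrays. The share of all features lower in both was not counted. Cdt1, Mcm2 and Gins3 passed only in Bach2 KO cells, and Orc1 and Dut only in DKO cells, which is a difference in calls and not a test between the mutants. Cdc45, Pola2, Pold2, Pole2, Rfc2, Rfc3, Tyms, Cdk2, Dnmt1, Chaf1b and Brca1 were lower past the threshold in neither. Calls also differed with signal level. Of 39 members with a mean over the 12 arrays at or above the 75th percentile, 33 fell in Bach2 KO cells. Of the 12 members below that level, 5 fell. The shares of all features at these levels were not counted.

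With the arrays of slide 1 alone, 31 members fell and 1 rose in Bach2 KO against WT cells, where 14.2% of all features fell and 7.11% rose. All WT arrays lay in slide row 1, and the Bach2 KO arrays of that slide in row 2. With slide row as a further term, which is then estimated from the split of the Bach1 KO arrays alone, 3 members passed (Tk1, Prim1 and Pole), all lower, where 1.13% of all features fell and 1.12% rose. With that term 45 of 50 members were lower and their median was -1.25. For all features, the share that was lower and the median were not counted in that fit. The third Bach2 KO array lay in row 1 of slide 2 and its member median of 1.66 lay beside the 1.48 and 1.56 of the others. All DKO arrays lay in row 1, as the WT arrays did. These arrays lay on other slides than the WT arrays, so row and slide cannot be told apart in them. The signal of the spike-in controls was lowest in the Bach2 KO samples, at 463 to 1394. It was 3613 to 25303 in DKO, 19218 to 85350 in Bach1 KO and 6208 to 133514 in WT samples, ranges that overlapped. Its part in the losses was not tested.

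**Figure D2:**
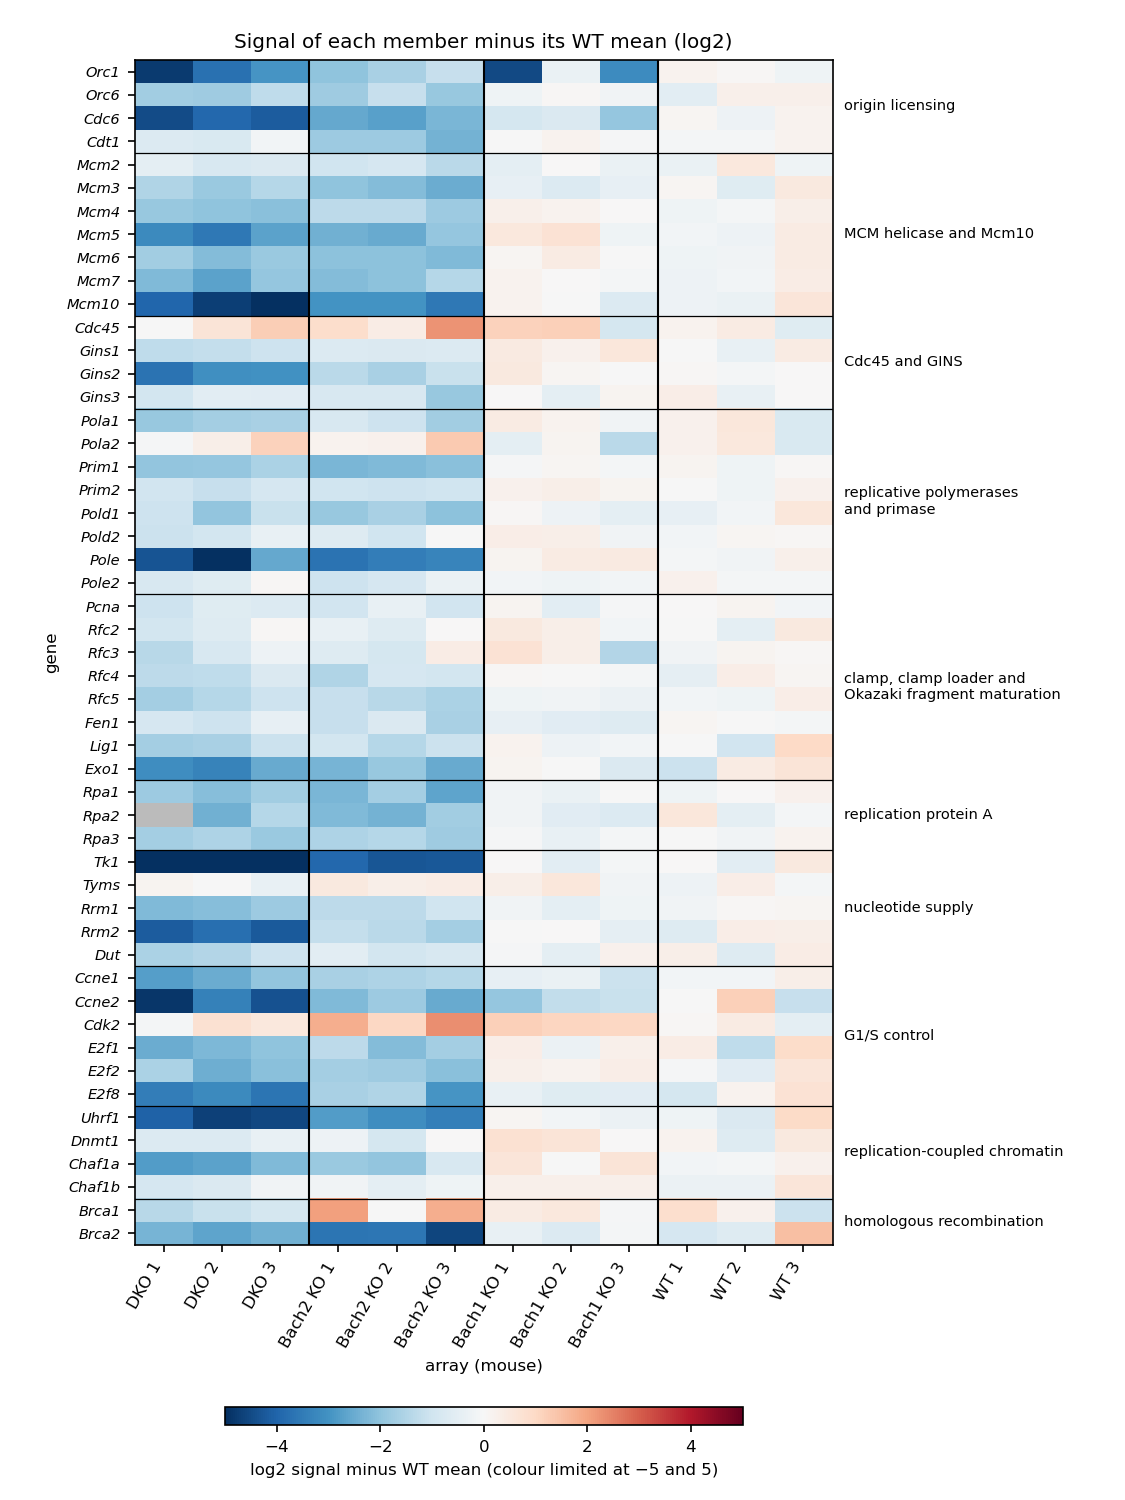
Log2 signal of each of the 51 members on each of the 12 arrays, minus that member's WT mean. Rows are grouped by role and columns run from DKO to WT. Blue marks lower and red higher than the WT mean, the colour is limited at -5 and 5, and grey is a spot left out as an outlier. The DKO and Bach2 KO columns are blue for most members, with Cdc45, Pola2, Tyms and Cdk2 as pale or red rows.

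Among the licensing factors, which prepare origins in G1, Orc6, Cdc6 and Cdt1 fell in Bach2 KO cells and Orc1, Orc6 and Cdc6 in DKO cells. Cdc6, the ATPase that brings the MCM ring to the origin recognition complex, read -4.02, -3.45 and -3.71 in DKO, -2.10, -2.24 and -1.82 in Bach2 KO and 0.55, 0.20 and 0.64 in WT cells. The 3 groups did not overlap. The difference from WT was -4.19 ± 0.36 (SE) in DKO cells, with an adjusted p of 5.18e-06, and -2.52 ± 0.36 in Bach2 KO cells, with an adjusted p of 0.000312. A second Cdc6 probe gave -4.22 in DKO cells and -1.94 in Bach2 KO cells, the last with an adjusted p of 0.0615. Cdt1, the partner of Cdc6 in loading, read 3.73, 3.63 and 4.27 in DKO, 2.60, 2.58 and 2.05 in Bach2 KO and 4.32, 4.31 and 4.60 in WT cells. Its fall of 2.0 ± 0.24 in Bach2 KO cells passed, with an adjusted p of 8.66e-05, and the -0.53 ± 0.24 in DKO cells did not (0.113). Orc1, the large subunit of the origin recognition complex, read -7.76, -6.72 and -5.92 in DKO, -5.0, -4.62 and -4.14 in Bach2 KO and -2.81, -2.93 and -3.21 in WT cells. It was not well above background on any DKO array, so its level there is a bound: it was at least 5.25-fold lower in DKO than in WT cells, with an adjusted p of 0.00596. The bound compares group means of log2 signal, with each DKO array raised to its lowest signal well above background. Orc6 fell by 1.59 in DKO and by 1.62 in Bach2 KO cells.

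All 7 members of the helicase group fell in Bach2 KO cells and 6 of 7 in DKO cells. Mcm6, a subunit of the ring that unwinds DNA, read 3.46, 3.03 and 3.31 in DKO, 3.13, 3.13 and 2.97 in Bach2 KO and 4.95, 5.01 and 5.58 in WT cells. Both mutants lay below every WT array and overlapped each other. The level was 26.5% of WT in DKO cells (-1.91 ± 0.22, adjusted p of 6.87e-05) and 23.3% of WT in Bach2 KO cells (-2.10 ± 0.22, adjusted p of 4.24e-05). Mcm3, another ring subunit, read 3.18, 2.81 and 3.25 in DKO, 2.66, 2.50 and 2.22 in Bach2 KO and 4.79, 4.09 and 5.15 in WT cells. Here the DKO arrays lay between the others, although their difference from Bach2 KO cells (0.63 ± 0.27) did not pass (0.218). The 6 ring subunits fell by 1.07 (Mcm2) to 2.28 (Mcm5) in Bach2 KO cells. Mcm2 was the exception in DKO cells, at -0.68 with an adjusted p of 0.0851. Mcm10, which helps the helicase to start, lost the most of the group and was at 3.96% of WT in DKO cells and 10.98% in Bach2 KO cells.

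Of Cdc45 and the GINS subunits, which complete the active helicase, Gins1, Gins2 and Gins3 fell in Bach2 KO cells and Gins1 and Gins2 in DKO cells. Gins2 read -0.83, -0.21 and -0.18 in DKO, 1.51, 1.23 and 1.73 in Bach2 KO and 2.92, 2.76 and 2.89 in WT cells. The 3 genotypes stood in separate steps, with differences from WT of -3.26 ± 0.26 in DKO (adjusted p of 2.69e-06) and -1.37 ± 0.26 in Bach2 KO cells (0.00199). Gins3 read 4.53, 4.91 and 4.89 in DKO, 4.66, 4.66 and 3.57 in Bach2 KO and 5.78, 5.10 and 5.48 in WT cells. Its fall of 1.16 ± 0.32 in Bach2 KO cells passed at 0.0143, and did not without WT replicate 1 (0.0589). Gins1 read 1.27, 1.33 and 1.49 in DKO, 1.83, 1.80 and 1.84 in Bach2 KO, 2.98, 2.75 and 3.11 in Bach1 KO and 2.50, 2.15 and 2.95 in WT cells. It fell by 1.17 in DKO cells and by 0.71 ± 0.23 in Bach2 KO cells (adjusted p of 0.0337). The Bach2 KO call was lost without any one of WT replicates 1 and 3 and Bach2 KO replicates 1 to 3, with an adjusted p of up to 0.117. The groups of Cdc45 overlapped, at differences from WT of 0.62 ± 0.64 in DKO and 1.17 ± 0.64 in Bach2 KO cells.

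Primase and polymerase subunits split into those that fell in both mutants (Pola1, Prim1, Prim2, Pold1 and Pole) and those that passed in neither (Pola2, Pold2 and Pole2). Prim1, the catalytic subunit of primase that lays down RNA primers, read 1.07, 1.12 and 1.44 in DKO, 0.76, 0.85 and 0.96 in Bach2 KO and 3.18, 2.84 and 3.1 in WT cells. All mutant arrays lay more than 1 unit below all WT arrays. Prim1 was at 28.04% of WT in DKO cells (-1.83 ± 0.21, adjusted p of 5.09e-05) and at 22.0% in Bach2 KO cells (-2.19 ± 0.21, adjusted p of 1.77e-05). Pole, the catalytic subunit of the leading-strand polymerase, read -3.11, -4.37 and -1.36 in DKO, -2.46, -2.24 and -2.09 in Bach2 KO and 1.11, 1.05 and 1.48 in WT cells. Its difference from WT was -4.16 ± 0.57 in DKO (adjusted p of 0.00023) and -3.48 ± 0.57 in Bach2 KO cells (0.000865). A second Pole probe was well above background on 1 array only. Pola1, Prim2 and Pold1 fell by 1.01 to 1.86 in Bach2 KO cells, and the Pola1 call there was lost without WT replicate 1, WT replicate 2 or Bach2 KO replicate 3 (adjusted p of up to 0.0867).

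The clamp, clamp loader and Okazaki fragment group had a median difference of -0.95 in DKO and -1.12 in Bach2 KO cells, and 6 of 8 members fell in each. Exo1, a nuclease of mismatch repair and of DNA end resection, was the largest. It read -1.78, -1.98 and -1.17 in DKO, -0.97, -0.57 and -1.16 in Bach2 KO and 0.27, 1.76 and 1.99 in WT cells. Its differences were -2.98 ± 0.45 in DKO (adjusted p of 0.000464) and -2.24 ± 0.45 in Bach2 KO cells (0.00299). Rfc5, a subunit of the ATPase that opens the clamp, read 2.22, 2.48 and 2.86 in DKO, 2.77, 2.53 and 2.31 in Bach2 KO and 3.78, 3.69 and 4.25 in WT cells. It fell by 1.39 ± 0.24 in DKO and by 1.37 ± 0.24 in Bach2 KO cells. The clamp itself, Pcna, was at 58.7% of WT in DKO cells (adjusted p of 0.0314) and 59.5% in Bach2 KO cells (0.0275). Under quantile normalization its Bach2 KO difference was 0.03, and the calls were lost without any of 6 single arrays in DKO and 4 in Bach2 KO cells, with an adjusted p of up to 0.115 in DKO and 0.0957 in Bach2 KO cells. Lig1, the ligase of Okazaki fragments, fell by 1.47 in DKO and by 1.14 in Bach2 KO cells, but gave -0.97 (0.0559) and -0.64 (0.161) without WT replicate 3. A Bach2 KO array lay within the WT range, and that call was lost without any of 10 single arrays. Fen1, the flap nuclease of the same step, fell by 0.75 in DKO cells at an adjusted p of 0.0424, a call lost without any of 9 single arrays. Rfc4 fell by 1.09 in DKO and by 1.10 in Bach2 KO cells, while its second probe gave -1.24 in DKO (0.0293) and -0.17 in Bach2 KO cells (0.861). The DKO call of the brighter Rfc4 probe was lost without DKO replicate 1 (adjusted p of 0.056). Rfc2 and Rfc3 passed in neither mutant.

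All 3 subunits of replication protein A, which coats single-stranded DNA, fell in both mutants. Rpa1 read 3.35, 3.04 and 3.43 in DKO, 2.91, 3.47 and 2.53 in Bach2 KO and 4.94, 5.2 and 5.38 in WT cells. The mutants overlapped each other and differed from WT by -1.90 ± 0.25 in DKO (adjusted p of 0.000178) and -2.21 ± 0.25 in Bach2 KO cells (7.19e-05). Rpa3 read 2.74, 2.91 and 2.62 in DKO, 2.92, 3.04 and 2.68 in Bach2 KO and 4.43, 4.28 and 4.65 in WT cells. It fell by 1.70 ± 0.20 in DKO and by 1.57 ± 0.20 in Bach2 KO cells. Rpa2 fell by 1.91 in DKO cells on 2 arrays, since the spot of DKO replicate 1 was left out as an outlier, and by 2.10 in Bach2 KO cells. Its DKO call was lost with the outlier spot kept or without DKO replicate 2 (adjusted p of 0.0586).

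Among the suppliers of deoxynucleotides, 4 of 5 fell in DKO and 3 of 5 in Bach2 KO cells. Tk1, the S-phase thymidine kinase, read -1.78, -1.71 and -0.22 in DKO, 1.56, 1.23 and 1.27 in Bach2 KO and 5.52, 4.98 and 5.99 in WT cells. Its level was 0.94% of WT in DKO cells (-6.73 ± 0.40, adjusted p of 3.32e-07) and 5.66% of WT in Bach2 KO cells (-4.14 ± 0.40, adjusted p of 2.06e-05). Rrm2, the small subunit of ribonucleotide reductase that limits its activity in S phase, read -0.20, 0.19 and -0.24 in DKO, 2.77, 2.62 and 2.26 in Bach2 KO and 3.30, 4.30 and 4.26 in WT cells. It fell by 4.04 ± 0.30 (adjusted p of 1.63e-06) in DKO and by 1.40 ± 0.30 (0.00411) in Bach2 KO cells. Rrm1, the large subunit, read 1.32, 1.43 and 1.72 in DKO, 2.24, 2.23 and 2.55 in Bach2 KO and 3.37, 3.62 and 3.64 in WT cells. It fell by 2.05 ± 0.21 in DKO and by 1.2 ± 0.21 in Bach2 KO cells, and the DKO arrays lay below the Bach2 KO arrays. Dut, the dUTPase, fell by 1.36 in DKO cells (adjusted p of 0.00684). Tyms, thymidylate synthase, gave -0.09 ± 0.30 in DKO and 0.39 ± 0.30 in Bach2 KO cells and passed in neither.

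The G1/S regulators Ccne1, Ccne2, E2f1, E2f2 and E2f8 fell in both mutants, and Cdk2 was the 1 member of the 51 that rose in Bach2 KO cells. Cdk2, the kinase that cyclin E activates, read -1.24, -0.40 and -0.65 in DKO, 0.67, -0.11 and 1.17 in Bach2 KO, 0.02, -0.09 and -0.12 in Bach1 KO and -1.12, -0.73 and -1.63 in WT cells. The Bach2 KO arrays all lay above the WT arrays, by 1.73 ± 0.38 (adjusted p of 0.00456). Its DKO difference from WT was 0.40 ± 0.38 (0.449), and those groups overlapped. E2f2, an activating E2F, read 2.16, 1.31 and 1.66 in DKO, 2.04, 1.97 and 1.66 in Bach2 KO and 3.69, 3.17 and 4.36 in WT cells. It fell by 2.03 ± 0.31 in DKO and by 1.85 ± 0.31 in Bach2 KO cells. Ccne1, cyclin E1, read 0.68, 0.96 and 1.46 in DKO, 1.83, 1.90 and 2.0 in Bach2 KO and 3.29, 3.29 and 3.73 in WT cells. Cyclin E1 fell by 2.41 ± 0.28 in DKO and by 1.53 ± 0.28 in Bach2 KO cells. A dimmer second Ccne1 probe, well above background on 11 arrays, gave -0.69 in DKO and 0.65 in Bach2 KO cells, with adjusted p-values of 0.708 and 0.702, so the loss of cyclin E1 rests on 1 probe. Ccne2 was not well above background on any DKO array and was at least 4.78-fold lower there than in WT cells (adjusted p of 0.000243). E2f1, another activating E2F, fell by 2.25 in DKO and by 1.73 in Bach2 KO cells, the last call lost without WT replicate 1 (0.0505) or WT replicate 3 (0.0522). E2f8, a repressor of E2F targets, fell by 3.43 in DKO and by 2.02 in Bach2 KO cells.

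Of the chromatin factors that act at the fork, Uhrf1 and Chaf1a fell in both mutants, and Dnmt1 and Chaf1b passed against WT in neither. Uhrf1, which brings the maintenance methyltransferase to newly copied DNA, read -0.73, -1.36 and -1.27 in DKO, 0.51, 0.18 and -0.11 in Bach2 KO and 3.09, 2.56 and 4.24 in WT cells. Its difference from WT was -4.42 ± 0.39 in DKO (adjusted p of 6.61e-06) and -3.1 ± 0.39 in Bach2 KO cells (0.000132). A second Uhrf1 probe, of another transcript, was well above background on 2 arrays only. Chaf1a, the large subunit of the histone chaperone CAF-1, read -1.66, -1.52 and -1.06 in DKO, -0.72, -0.83 and 0.33 in Bach2 KO and 1.01, 1.06 and 1.35 in WT cells. Chaf1a fell by 2.55 ± 0.35 in DKO and by 1.55 ± 0.35 in Bach2 KO cells. Brca2, a mediator of homologous recombination, read -1.03, -1.32 and -1.11 in DKO, -2.36, -2.31 and -3.29 in Bach2 KO and 0.47, 0.65 and 2.79 in WT cells. Unlike most members it stood lowest in Bach2 KO cells, with differences of -2.45 ± 0.54 in DKO (adjusted p of 0.00562) and -3.95 ± 0.54 in Bach2 KO cells (0.000231). The difference of 1.5 ± 0.54 between DKO and Bach2 KO cells did not pass (0.139). Brca1 was well above background on 1 Bach1 KO and 1 Bach2 KO array only and was not well above background on any DKO or WT array.

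**Figure D3:**
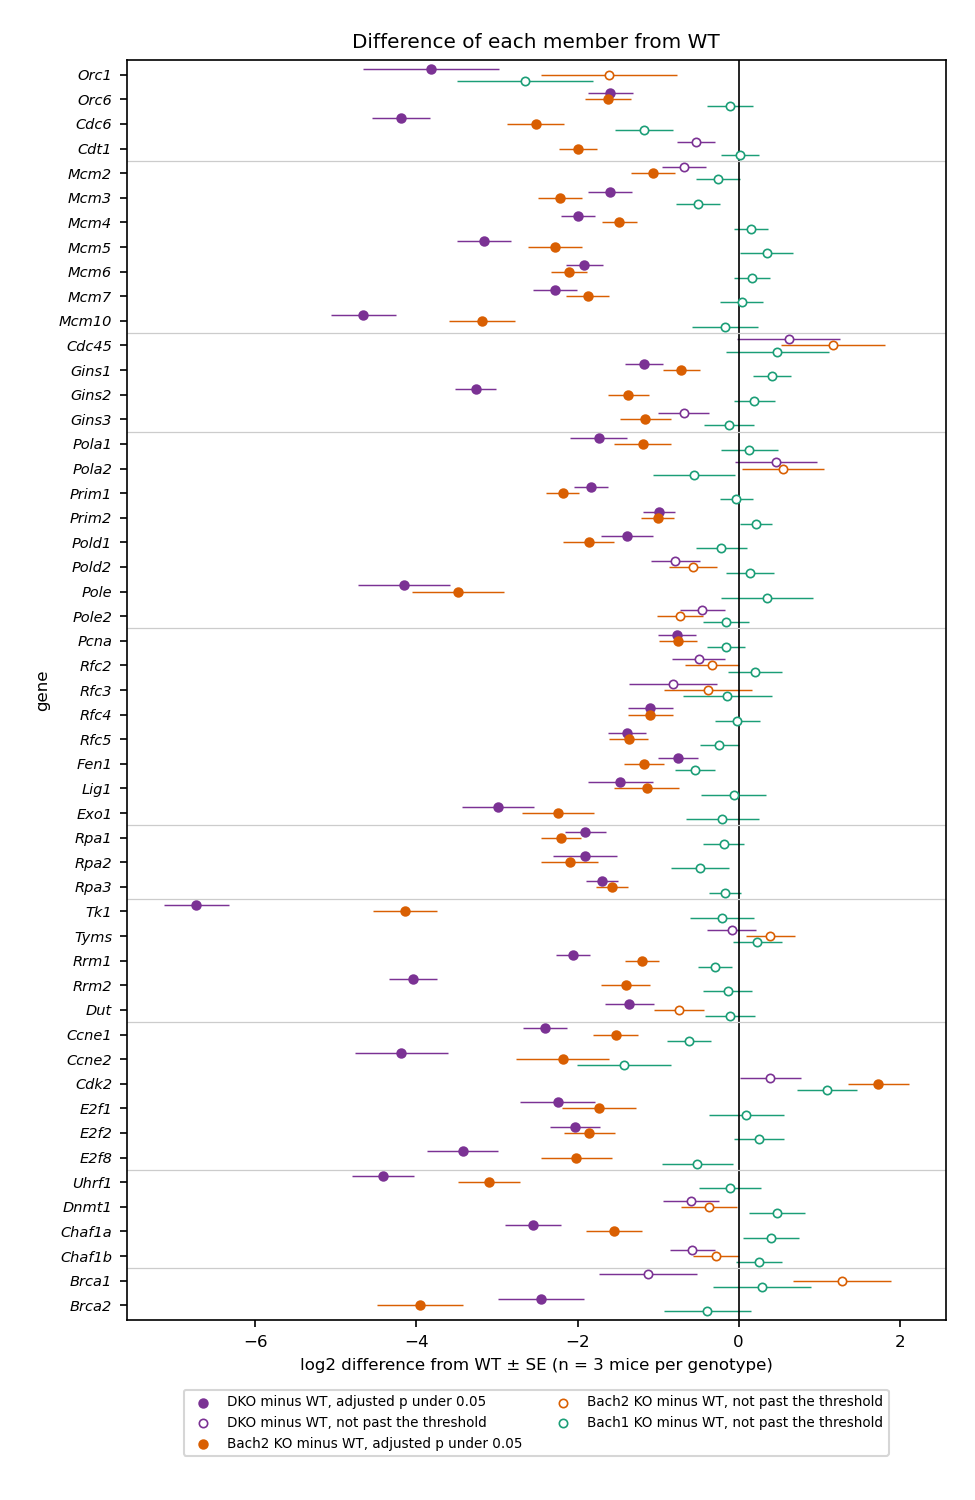
Log2 difference from WT with its standard error for every member, in DKO (purple), Bach2 KO (orange) and Bach1 KO cells (green), 3 mice per genotype. Filled points passed an adjusted p of 0.05 and open points did not. Tk1 lies farthest left at -6.73 and -4.14, Cdk2 is the filled point right of 0, and no green point is filled. Brca1 did not pass the background filter, and its points come from a fit without that filter.

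In Bach1 KO against WT cells, 0 of the 50 members passed with limma, where 0.0606% of all features did. At an unadjusted p under 0.05, 4 members were lower and 1 higher, against 2.99% of all features that were lower and 5.3% either way. The members' median difference was -0.11 and that of all features was -0.07. Orc1 read -7.47, -3.31 and -6.11 in Bach1 KO cells, all below WT but with an SD of 2.12 against 0.21 in WT cells, and gave -2.65 ± 0.84 (adjusted p of 0.557). Without Bach1 KO replicate 2 it gave -3.81 and passed (0.0214), and the Orc1 probe was well above background on 1 of 3 Bach1 KO arrays. Cdc6 read -0.42, -0.24 and -1.46 in Bach1 KO cells, all below WT, and gave -1.17 ± 0.36 (0.502). Cdk2 lay above WT on all Bach1 KO arrays, by 1.10 ± 0.38 (0.655). Gins1 gave 0.41 ± 0.23 (adjusted p of 1.0), and its groups overlapped.

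Members differed less between DKO and Bach2 KO cells: 4 were lower and 1 was higher in DKO cells, 5 of 50 where 3.57% of all features passed. The members' median difference was -0.40, against 0.03 for all features. Of the 51, 20 were lower on every DKO array than on every Bach2 KO array, against 16.5% of all features, and 5 were higher on every array, against 18.6%. In 30 of 51 members the means ran in the order DKO, Bach2 KO and then the lower of Bach1 KO and WT. The share of all features in that order was not counted, so this number is a description only. Rrm2 was at 16.1% of its Bach2 KO level in DKO cells (-2.63 ± 0.30, adjusted p of 0.000702), and Tk1 at 16.6% (-2.59 ± 0.40, adjusted p of 0.00496). Gins2 was at 26.9% (-1.90 ± 0.26, adjusted p of 0.00211). Cdc6 differed by -1.67 ± 0.36 (0.028), a call lost without any of 5 single DKO or Bach2 KO arrays (adjusted p of up to 0.122). Cdt1 was the member that was higher in DKO cells, by 1.47 ± 0.24 (0.0061), with every DKO array above every Bach2 KO array. Rrm1 lay just outside the threshold, at -0.85 ± 0.21 (0.0507).

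**Figure D4:**
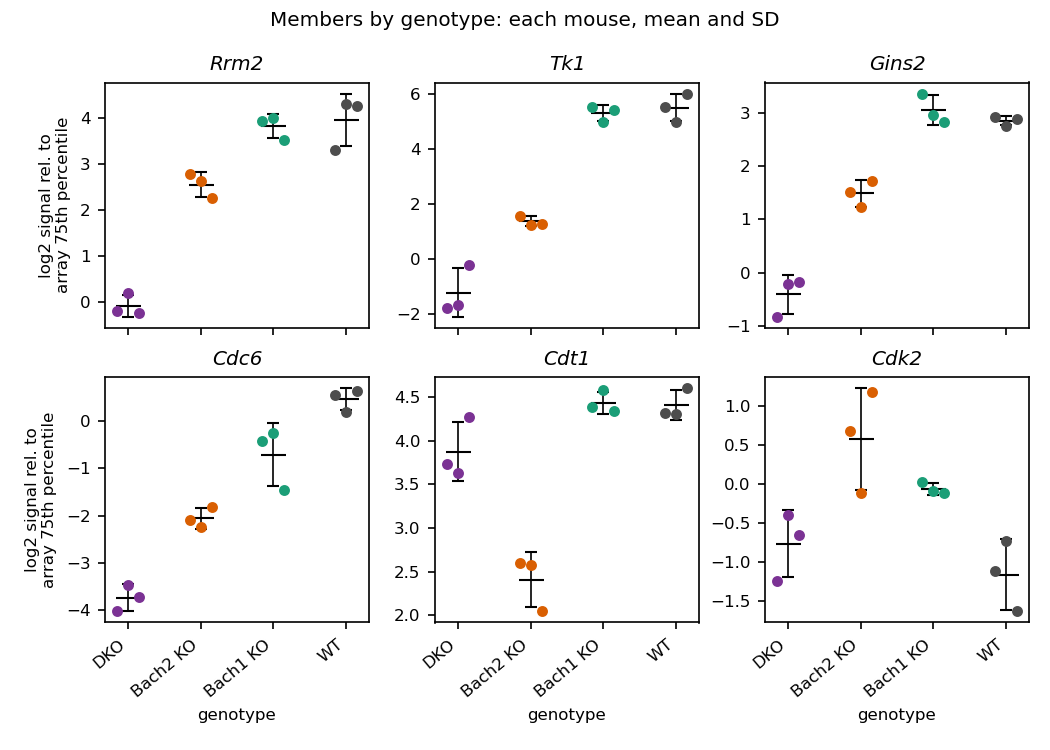
Log2 signal relative to the array's 75th percentile for the 5 members that differed between DKO and Bach2 KO cells, and for Cdk2, by genotype. Points are mice, bars are the mean and SD of 3 mice, and each panel has its own scale. Rrm2, Tk1, Gins2 and Cdc6 step down from Bach2 KO to DKO, whereas Cdt1 is lowest in Bach2 KO cells.

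The interaction asks whether loss of Bach1 had another effect without Bach2 than with it. It passed for Rrm2 and Gins2, 2 of 50 members, where 0.675% of all features passed. The members' median was -0.44 and that of all features 0.09. Rrm2 differed between Bach1 KO and WT cells by -0.14, against -2.63 between DKO and Bach2 KO cells, an interaction of -2.50 ± 0.42 (adjusted p of 0.0219). Gins2 differed by 0.20 between Bach1 KO and WT cells and by -1.90 between DKO and Bach2 KO cells, an interaction of -2.09 ± 0.36 (0.0242). Both calls were lost without single arrays, with adjusted p-values of up to 0.0783 for Rrm2 and 0.0819 for Gins2. Cdk2 had an interaction of -2.43 ± 0.53 (0.0724), Tk1 one of -2.38 ± 0.57 (0.101) and Cdt1 one of 1.45 ± 0.33 (0.0889), none past the threshold.

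The loss of Bach2 can be compared on a Bach1-deficient background through arrays that Bach2 KO against WT does not use. In DKO against Bach1 KO cells, 37 of 50 members fell and 0 rose with limma, against 15.3% and 10.9% of all features. At an unadjusted p under 0.05, 39 were lower, against 22.8% of all features, and 0 were higher. The median difference was -1.49, against -0.21 for all features. The members lower in both comparisons numbered 33, which is 86.84% of the 38 in Bach2 KO against WT cells and 89.19% of the 37 in DKO against Bach1 KO cells. Over all features, 10.7% were lower in both. The differences of the 50 members correlated across genes at a Pearson r of 0.746 and a Spearman rho of 0.747, where all 23109 features gave an r of 0.796. Members are not independent replicates, and DKO arrays share their slide. Pold2, Dut, Dnmt1 and Chaf1b passed in DKO against Bach1 KO cells and not in Bach2 KO against WT cells, and Cdt1, Mcm2, Gins3, Pcna and Fen1 the other way round, a difference in calls that was not tested. In DKO against Bach1 KO cells, the call of Pold2 was lost without any of 6 single arrays, that of Dnmt1 without any of 7 and that of Chaf1b without any of 9, with adjusted p-values of up to 0.144 for Pold2, 0.141 for Dnmt1 and 0.165 for Chaf1b. The call of Dut held without each single array (adjusted p of up to 0.0496). Between the single mutants, 34 members were lower in Bach2 KO than in Bach1 KO cells and 0 higher, against 21.0% and 12.2% of all features. At an unadjusted p under 0.05, 39 were lower, against 28.2% of all features, and 0 were higher.

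**Figure D5:**
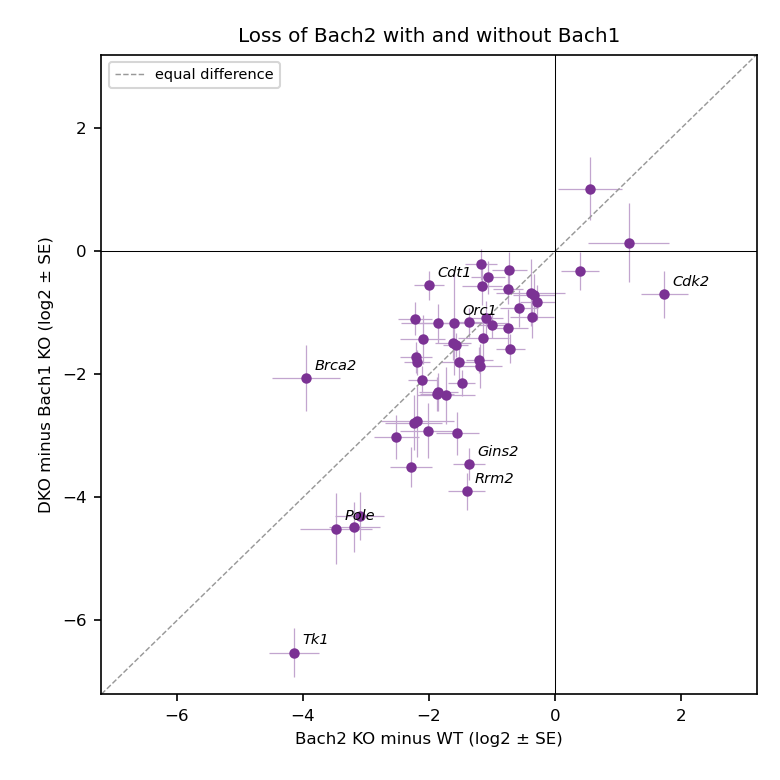
Log2 difference with its standard error for each of the 50 members tested, with Bach2 KO minus WT on the horizontal and DKO minus Bach1 KO on the vertical axis. The dashed line marks equal differences. Most members lie in the lower left, Tk1, Rrm2 and Gins2 lie below the line and Brca2 and Cdt1 above it.

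Genes of the same pathways outside the 51 were described from 6 further lists with 123 genes, 117 of them tested. In DKO against WT cells 63 fell and 4 rose, where 16.6% of all features fell and 10.6% rose. In Bach2 KO against WT cells 68 fell and 9 rose, where 24.7% of all features fell and 12.4% rose. Among 27 other replisome and licensing genes, 17 (63.0%) fell and 2 (7.41%) rose in Bach2 KO cells. Ticrr, which brings Cdc45 to origins, was not well above background on any DKO array, was at least 33.7-fold lower there than in WT cells (adjusted p of 2.06e-07), and fell by 3.67 ± 0.33 in Bach2 KO cells. Tipin, of the fork protection complex, fell by 1.81 in DKO and by 2.01 in Bach2 KO cells, and Pold4, a small polymerase delta subunit, by 1.56 in DKO and 1.40 in Bach2 KO cells. Orc2 and Orc5, core subunits of the origin recognition complex, rose instead, by 1.94 and 2.28 in DKO and by 1.76 and 1.81 in Bach2 KO cells.

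Of 26 other G1/S regulators tested, 8 (30.8%) fell and 5 (19.2%) rose in Bach2 KO cells. These shares lie near the 24.7% and 12.4% of all features, so the Bach2 KO counts say nothing about this list. In DKO against WT cells 9 (34.6%) fell and 2 (7.69%) rose, where 16.6% of all features fell and 10.6% rose. The members are given as single genes. Cdkn1a, the p21 inhibitor of cyclin-dependent kinases, read 5.2, 5.26 and 5.30 in DKO, 5.68, 5.21 and 5.24 in Bach2 KO and 3.98, 4.42 and 4.35 in WT cells. All mutant arrays lay above WT, by 1.01 ± 0.20 in DKO (adjusted p of 0.00309) and 1.13 ± 0.20 in Bach2 KO cells (0.00139). Cdkn1c, the p57 inhibitor, read -1.03, -1.46 and -0.79 in DKO, -1.63, -1.80 and -1.18 in Bach2 KO and -5.12, -4.34 and -6.87 in WT cells. It rose by 4.35 ± 0.67 in DKO (0.000523) and 3.9 ± 0.67 in Bach2 KO cells (0.00111), with 2 of 3 WT arrays well above background. Tfdp1, the E2F partner, rose by 1.46 in Bach2 KO cells (0.0246). Ccnd3, cyclin D3, read 3.15, 2.46 and 2.85 in DKO, 2.36, 2.03 and 1.70 in Bach2 KO and 5.49, 4.77 and 6.14 in WT cells, and fell by 2.64 in DKO and 3.44 in Bach2 KO cells. E2f7, a repressor of E2F targets like E2f8, fell by 6.32 ± 0.28 in DKO and by 2.62 ± 0.28 in Bach2 KO cells. Fbxo5, an inhibitor of the anaphase-promoting complex, fell by 2.57 in DKO and 2.35 in Bach2 KO cells.

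Among 20 other genes of nucleotide metabolism, 5 (25%) fell and 0 rose in DKO cells, where 16.6% of all features fell and 10.6% rose. The share that fell lies near that of all features, so the DKO count says nothing about this list. In Bach2 KO cells 9 (45.0%) fell and 2 (10%) rose, where 24.7% of all features fell and 12.4% rose. Gart, of purine synthesis, and Dck, the deoxycytidine kinase, rose by 1.59 and 1.52 in Bach2 KO cells. Impdh2 and Impdh1, which open guanine nucleotide synthesis, fell by 1.43 and 1.76 there, and Dguok, the mitochondrial deoxyguanosine kinase, by 1.82. Of 10 histone chaperone and S-phase histone genes, 6 fell in Bach2 KO cells, against 24.7% of all features, and 4 in DKO cells, against 16.6%. Ezh2, the Polycomb methyltransferase, fell by 2.16 in DKO and 1.83 in Bach2 KO cells, and Asf1b, a histone chaperone, by 3.54 in DKO and 2.17 in Bach2 KO cells. Rbbp4, a histone-binding subunit of CAF-1 and other complexes, fell by 1.14 in Bach2 KO cells. Of 15 replication stress and repair genes, 11 fell in DKO cells, against 16.6% of all features, and 10 in Bach2 KO cells, against 24.7%. Rad54l, a DNA translocase of homologous recombination, fell by 4.44 in DKO and 2.49 in Bach2 KO cells.

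Genes of mitosis and G2/M fell in 19 of 19 tested in DKO cells, against 16.6% of all features. In Bach2 KO cells 18 of 19 fell, against 24.7% of all features. Their median difference from WT was -4.28 in DKO and -2.08 in Bach2 KO cells. In DKO against Bach2 KO cells 12 of 19 were lower, where 489 of all 23109 features were lower. Cdk1, the mitotic kinase, fell by 4.03 in DKO and by 2.26 in Bach2 KO cells, Ccnb2, cyclin B2, by 6.2 in DKO and 2.4 in Bach2 KO cells, and the centromere motor Cenpe by 5.45 in DKO and 2.37 in Bach2 KO cells.

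Markers of other cells also differed between genotypes, and their part in the losses of replication genes was not tested. The summed level of 11 T and NK cell markers was 3.08 to 3.46 in DKO, 3.83 to 3.98 in Bach2 KO and 6.29 to 7.20 in WT cells, with 8 to 10, 7 to 10 and 6 to 7 of them well above background. Cd2, the brightest of them on WT arrays, averaged 2.42 in DKO, 3.45 in Bach2 KO and 6.70 in WT cells, and the sum moved with it. Some other markers of that list were higher in the mutants. Cd3d averaged -2.22 in DKO, -3.71 in Bach2 KO and -7.12 in WT cells, and Lck 1.24 in DKO, 0.36 in Bach2 KO and -3.26 in WT cells. Cd3e, well above background on all 12 arrays, did not rise, at -1.64 in DKO, -1.56 in Bach2 KO and -1.23 in WT cells. Cd4 averaged -0.43 on 2 DKO arrays, 0.76 in Bach2 KO and 0.08 in WT cells. Cd3d was well above background on all DKO and Bach2 KO arrays and on 0 WT arrays, and Cd3g on all of those and on 1 WT array. Ncr1 was not well above background on any DKO, Bach2 KO or WT array. The 6 B cell markers summed to 4.94 to 6.33 in DKO, 3.98 to 4.80 in Bach2 KO and -2.08 to -1.69 in WT cells, while Ms4a1 was not well above background on any DKO array. The 6 monocyte markers summed to 6.81 to 6.83 in DKO, 6.30 to 6.68 in Bach2 KO and 5.78 to 6.43 in WT cells. Fn1 was well above background on all arrays, whereas F13a1, at 3.59 in DKO, 1.81 in Bach2 KO and -7.30 in WT cells, was so on all DKO and Bach2 KO arrays and on 0 WT arrays. The 7 dendritic cell markers summed to 5.98 to 6.29 in DKO, 6.02 to 6.08 in Bach2 KO and 5.56 to 6.03 in WT cells. Within that list Siglech averaged 5.36 in DKO, 4.90 in Bach2 KO and 5.76 in WT cells, and Ccr7 4.46 in DKO, 4.92 in Bach2 KO and -2.29 in WT cells. Cd209a averaged -0.02 in DKO, 1.47 in Bach2 KO and -7.15 in WT cells and was well above background on 0 WT arrays. Of the alveolar macrophage markers, Siglecf averaged -2.56 in DKO, -0.59 in Bach2 KO and 5.74 in WT cells.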

How the data were processed

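RNA of sorted alveolar macrophages was hybridised to single-colour Agilent arrays, 1 array for each of 12 mice, and genotype was taken from the sample labels. The deposited scanner files hold an intensity per spot (the processed signal), which per the file headers is background-subtracted within the array and not normalized between arrays. The file headers name Agilent Feature Extraction 10.7.3.1, the submitters' processing notes version 9.1. A deposited table of processed log2 values for 20850 probes served as an alternative only. How the authors made it is not stated in the labels or headers, but its columns followed the scaled scanner signal, centred on each probe's median, with r of at least 0.9999, and had medians from -0.25 to 0.25.

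The processed signal was log2-transformed, and each array's 75th percentile over non-control spots was subtracted. Outlier spots were left out, and spots of a probe were averaged. Probes were named by accession through the RefSeq table of GRCm38.p6, which named 26413 of 55681 probes, and the brightest probe stood for each gene. The background filter left 30854 probes. A model with 1 mean per genotype was fitted to all 12 arrays (8 residual degrees of freedom) with limma 3.58.1 in R 4.3.3 (lmFit, and eBayes with a trend). Adjusted p-values are Benjamini-Hochberg over 23109 genes or transcripts, with a threshold of 0.05. The method was tested on simulated data. The number of arrays limits the precision.

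The 51 members and all gene lists were chosen with earlier results of these data known, so counts over them are descriptions. Members given with every array's value are, per role, the 2 with the smallest adjusted p in Bach2 KO against WT cells. To these were added members that rose in either mutant, the 3 with the smallest adjusted p per direction in DKO against Bach2 KO cells and the 3 in the interaction, and the 2 with the smallest p per direction in Bach1 KO against WT cells. Of the other lists, up to 3 genes per direction are named by the smallest adjusted p in Bach2 KO against WT cells. Some genes that this rule names are not reported here.

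Replicate numbers come from the sample titles. Deviations of same-numbered DKO and Bach2 KO arrays correlated at 0.116, 0.123 and 0.118, those of other genotype pairs between -0.143 and 0.385, with no other pair of genotypes over 0.1 for every number. A block by replicate number changed no call of DKO against Bach2 KO cells. The alternatives were other scalings, background corrections, filters and probe choices, the table of processed values, other fits, the slide, and leaving out each array.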

Additional observations from a re-analysis of the deposited data

Results flagged for a closer look

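The interaction of Bach1 and Bach2 loss, which tests whether the effect of losing Bach1 differs with and without Bach2, passed an adjusted p of 0.05 for 2 members: Rrm2 at -2.50 and Gins2 at -2.09 (log2). In both, the DKO arrays lay below the Bach2 KO arrays, while the Bach1 KO and WT arrays overlapped. Of the other named genes it passed for E2f7 at -3.42, Ccnb2 at -3.52 and Cenpe at -2.93, all lowest in DKO cells. Impdh1 was the named gene with a positive interaction, at 2.41. It read 1.76, 1.69 and 1.06 in DKO cells, -0.39, -1.44 and -1.37 in Bach2 KO cells, 0.72, 0.85 and 0.98 in Bach1 KO cells and 0.76, 0.32 and 1.0 in WT cells.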

How the results depend on the processing

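Directions of the members' differences that passed the threshold were kept under nearly all alternatives. Of the single-member values recomputed, 8915 stayed on the same side of the threshold, 291 lost the call and 58 gained one. The other 2 had passed in the main fit and changed sign. Those were Pcna in Bach2 KO against WT cells under quantile normalization (0.0328) and Ccne1 in Bach2 KO against Bach1 KO cells with the mean of its probes (0.15). Sign changes of values without a call are not in that count. Rfc3 in Bach2 KO against WT cells, negative in the main fit, gave 0.55 with slide row as a term. Without scaling, 22 members passed in Bach2 KO against WT cells and 20 in Bach2 KO against Bach1 KO cells, and the median of all features moved to 0.39 and 0.29. With slide row as a term within slide 1, chosen after seeing the data, 3 and 19 passed. In DKO against Bach2 KO cells 9 passed with the series matrix values, with these groups alone, and without WT replicate 3 and Bach1 KO replicate 3 together (also chosen later). The interaction passed for 1 member with scaling to the array median, with the series matrix and with the replicate block, which moved no other count by over 1.5 times. The block gave 40 calls in Bach2 KO and 36 in DKO against WT cells. Leaving out single arrays gave 33 to 40 calls in Bach2 KO against WT, 33 to 38 in DKO against WT and 0 to 1 in Bach1 KO against WT cells. It gave 28 to 37 in DKO against Bach1 KO, 4 to 9 in DKO against Bach2 KO (9 without WT replicate 3) and 28 to 36 in Bach2 KO against Bach1 KO cells. For the interaction the range was 0 to 3, with 0 without replicate 1 of Bach1 KO, Bach2 KO or DKO. Shares of all features called were not counted for these alternatives, except within slide 1 in Bach2 KO against WT cells. The counts thus do not separate members from all features. The planned normexp on mean signals was not run, since the files used hold median signals, which were used instead. Signal over background limits Orc1, Ccne2 and Brca1.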
